A study of Mus musculus with 6 samples.

Results

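The core pluripotency genes Pou5f1, Sox2, Sall4, Utf1, Dppa2, Dppa4, Dppa5a, Fbxo15, Tcl1 and Trim28 were followed in mouse embryonic stem cells with and without E-cadherin. They were listed by name, but earlier results of these data were known when they and the other gene lists were drawn up. Shares of a list set beside all tested genes are therefore descriptions. All 10 were found by Ensembl identifier among the 55401 genes of the count table. RNA sequencing compared 3 wild-type (WT) libraries of the V6.5 embryonic stem cell line with 3 libraries of V6.5 cells labelled Cdh1-/- (Cdh1 knockout). This label stands for cells in which both copies of the E-cadherin gene are disrupted. Libraries of each genotype were lettered A, B and C. No treatment or time point was named, and nothing in the labels says whether a letter stands for a separate culture or whether the knockout cells were 1 clone, so p-values measure only the spread between these libraries, which may be technical. The title of the series concerns E-cadherin and the activity of beta-catenin, and the question here was whether the transcripts of the core genes differed between the genotypes.

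Pluripotent cells are held in their state by a small set of transcription factors that activate one another and the genes of the embryonic stem cell. OCT4, the product of Pou5f1, and SOX2 bind DNA side by side at composite elements, and SALL4 joins them at many of the same enhancers. Utf1, Dppa4, Dppa5a, Fbxo15 and Tcl1 are switched off as cells differentiate and have long served as markers of the undifferentiated state. E-cadherin connects the cells of a stem cell colony and binds beta-catenin at the membrane.

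The 6 libraries held between 18020719 and 23381942 counts. Knockout replicate A stood apart on the second principal component of all tested genes, which held 20.9% of the variance, at 43.5, where the other 5 libraries lay between -25.8 and 8.99. Values of the members, and list counts that move by more than 1.5 times, are therefore also given without it. Cdh1 itself stood at 30.9% of its WT level in the knockout libraries, with a log2 fold change of -1.70 (SE 0.08, adjusted p 2.9e-08), and in every knockout library it lay below every WT library. The label of an embryonic stem cell was checked with 8 markers that are not members, Nanog, Zfp42, Esrrb, Fgf4, Tdgf1, Klf4, L1td1 and Alpl, whose summed level was 3717 to 4022 TPM, the count per base of exon scaled to a common total, in WT and 4276 to 5663 TPM in the knockout. All 8 were counted in every library. In bulk RNA, fewer cells that express a gene and less RNA per cell cannot be told apart.

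Some members have copies elsewhere in the genome, and these decide how far a count can be assigned to 1 gene. Dppa5a had 7 other genes whose transcripts matched it at 95% identity or more over at least 100 bases, Dppa2 and Dppa4 had 2 each, and the other 7 members had none. The copies received few counts in the table. Such counts do not show that the copies were silent, nor where reads that match both a copy and a member were counted. Among the genes that matched Dppa5a, the highest count was 340, in Pigp, or at most 2.01% of the count of Dppa5a in the same library. That count is of the whole gene Pigp, whose match covered 417 aligned bases. Next was Gm6798, with at most 40 counts and 0.19%. The copies of Dppa2 and Dppa4 reached at most 1.12% and 0.613%. To show how close such a copy is, the first 90 coding bases of Dppa5a are set beside the matching stretch of its pseudogene Dppa5b, both from GENCODE M21 on GRCm38, with the 3 differing bases in capitals. Dppa5a was read on the minus strand at chr9:78368010-78368099 and Dppa5b on the plus strand at chr9:78245550-78245639.
Dppa5a: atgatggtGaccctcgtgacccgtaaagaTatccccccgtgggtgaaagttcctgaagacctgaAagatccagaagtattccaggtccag
Dppa5b: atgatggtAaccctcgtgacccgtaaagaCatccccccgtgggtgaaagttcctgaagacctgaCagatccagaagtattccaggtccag
Counted from the first base shown, the differences were G9A, T30C and A65C, and over 297 aligned bases there were 9. Dppa5b received at most 20 counts in a library, where Dppa5a received at least 16876. On the opposite strand, the gene Gm19553 covers 21.4% of the exon bases of Pou5f1 and had at most 2 counts, and Gm14261 covers 5.72% of those of Sall4 and had at most 15 counts.

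Promoters were read for the members in the RefSeq table of GRCm38.p6, which holds 250 bases before and 50 after a start site and had 6 promoters for 5 of the 10 members. OCT4 recognises the octamer ATGCAAAT, and SOX2 recognises sequences that contain ACAAAG or ACAATG. With both strands searched, the octamer, also in the looser form ATGCNAAT with any base at N, was in none of the 6 promoters, and neither was a SOX motif followed within 3 bases by an octamer. Of all 32851 promoters in the table, 1.74% held ATGCAAAT, 3.15% ATGCNAAT (which includes the first), 18.7% ACAAAG and 12.6% ACAATG. The SOX matches in Pou5f1 and Sox2 are shown because both genes are bound by their own products in stem cells. The match of Sox2 lay 206 to 201 bases before its RefSeq start in the stretch chr3:34649759-34649824, and that of Pou5f1 lay 158 to 153 bases before the downstream of its 2 RefSeq starts in the stretch chr17:35508619-35508684. The Pou5f1 stretch is inside the span of the gene, 35506018 to 35510772, and the promoter of the other start held no such match. Both matches are on the plus strand and are shown in capitals.
Sox2: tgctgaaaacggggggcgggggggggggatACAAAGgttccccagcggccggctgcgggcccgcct
Pou5f1: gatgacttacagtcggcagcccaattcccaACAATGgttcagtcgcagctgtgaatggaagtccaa
A match describes the letters of the window and does not show that a factor bound there.

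Per base of exon, the members spanned a wide range of levels in both genotypes. Dppa5a was the most abundant by far, at a mean of 3607 TPM over the 6 libraries and rank 19 of 17325 tested genes. Pou5f1 followed at 879 TPM (rank 125), then Trim28 at 749.7 TPM (rank 150), Sox2 at 652 TPM (rank 176) and Utf1 at 409 TPM (rank 285). Dppa4 at 186 TPM and Sall4 at 180.3 TPM had ranks 806 and 841, and Fbxo15 at 133 TPM had rank 1230. Tcl1 at 77.7 TPM and Dppa2 at 77.0 TPM closed the order, at ranks 2312 and 2335. The ranges over libraries were separate between Dppa5a and Pou5f1, between Sox2 and Utf1 and between Utf1 and Dppa4. All other neighbours in the order overlapped, and Dppa4 was above Sall4 in 3 of 6 libraries. The members together made up 6642 to 6908 TPM in WT and 6714 to 7370 TPM in the knockout, of which Dppa5a was the largest part.

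**Figure D1:**
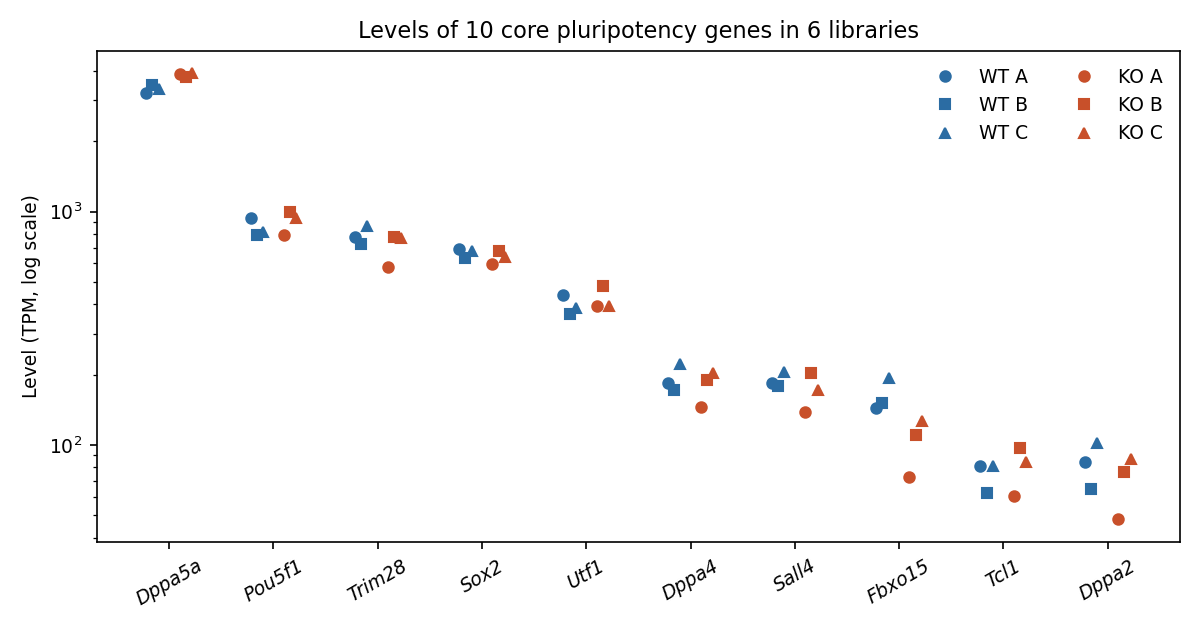
Level of each gene in TPM on a log axis, with 1 point for each library, WT in blue and Cdh1 knockout in orange, and the replicate letter given by the shape. Dppa5a lies at 3211 TPM or more in every library, the points of Fbxo15 and Dppa5a separate by genotype, and knockout A (orange circles) is the lowest knockout library for most genes.

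Between the genotypes, 9 of the 10 members did not pass the test and 1, Fbxo15, was lower in the knockout. All 10 were tested, with between 646 and 23507 counts per library. The share called, 10% of the members, was near the 13.3% of all 17325 tested genes (7.6% higher and 5.71% lower). Their median log2 fold change was -0.05, against -0.01 over all tested genes, with 4 above 0 and 6 below. The intervals were narrow. For 8 members the 95% interval of the fold change lay within 1.5-fold either way, which held for 45% of all tested genes, and the exceptions were Fbxo15 and Dppa2. The members all ranked at 2335 or higher of the 17325 tested genes by TPM. Genes of like level were not compared, so narrow intervals are not shown to be particular to the members. Knockout and WT libraries did not overlap in 2 members, Fbxo15 and Dppa5a, where 30.7% of all tested genes had groups that did not overlap.

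**Figure D2:**
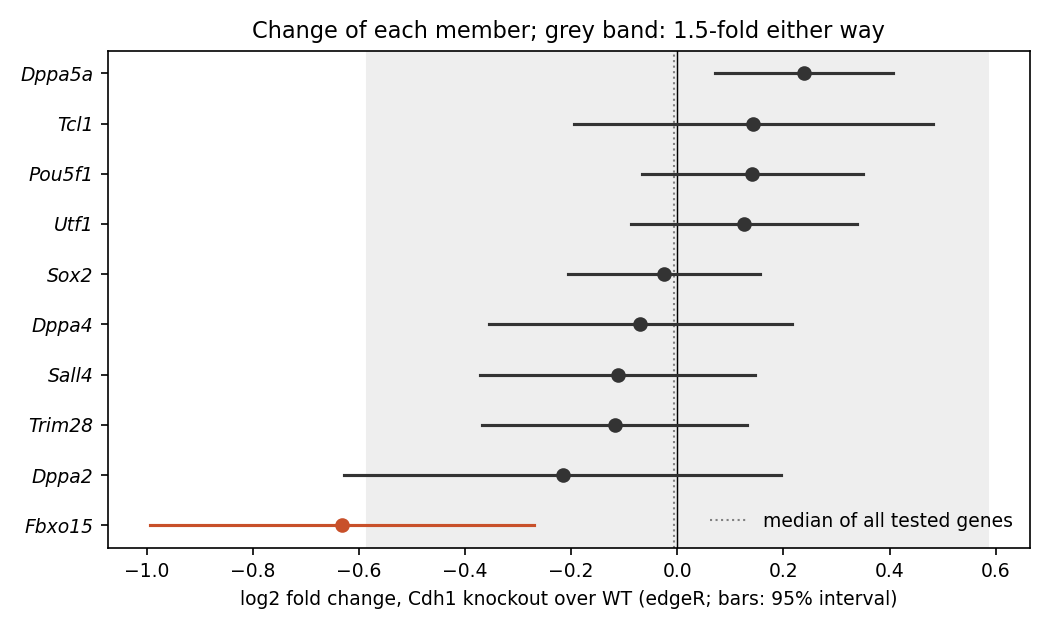
Log2 fold change of each gene, Cdh1 knockout over WT, with its 95% interval from edgeR, the grey band marking 1.5-fold in either direction and the dotted line the median of all tested genes. Fbxo15, in orange, is the gene that passed an adjusted p of 0.05, and the intervals of 8 genes stay within the band.

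Pou5f1 (ENSMUSG00000024406.16, chromosome 17, 35506018 to 35510772, plus strand) encodes OCT4, without which the inner cell mass is not pluripotent. It was counted at 497, 423 and 457 CPM (counts scaled to library size) in WT A, B and C, and at 441, 553 and 524 in knockout A, B and C. The groups overlapped, knockout A lying between the WT libraries and knockout B and C above all of them. The fold change was 1.10, with a 95% interval of 0.954 to 1.27 (log2 fold change 0.14, SE 0.10, adjusted p 0.394). Without knockout replicate A the log2 fold change was 0.23 and did not pass either (adjusted p 0.0819).

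Sox2 (ENSMUSG00000074637.7, chromosome 3, 34650405 to 34652461, plus strand), the partner of OCT4 on DNA, had the value nearest to 0 of all members. It stood at 551, 510.3 and 573 CPM in the WT replicates and at 496, 569.6 and 540.5 CPM in the knockout replicates. WT and knockout values were interleaved. The 95% interval of the fold change ran from 0.867 to 1.11 around 0.983 (log2 fold change -0.03, SE 0.08, adjusted p 0.892). Its sign was not fixed, since it was 0.03 without knockout replicate A and 0.02 without WT replicate C.

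Sall4 (ENSMUSG00000027547.17, chromosome 2, 168748332 to 168767201, minus strand) is a zinc finger factor that works with OCT4 and recruits the NuRD deacetylase complex. Its CPM values were 363, 358 and 427 in WT and 285, 418 and 359 in the knockout. Knockout A was the lowest of the 6 libraries, and the other knockout libraries lay within the WT range. The fold change was 0.925 with an interval of 0.773 to 1.11 (log2 fold change -0.11, SE 0.12, adjusted p 0.613), and the log2 fold change was 0.02 without knockout replicate A.

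Since OCT4 and its partners act together, their ratios were taken within each library, where no scaling between libraries enters. Per base of exon, Pou5f1 over Sox2 was 1.36, 1.25 and 1.20 in WT A, B and C and 1.34, 1.47 and 1.46 in knockout A, B and C. Mean log2 ratios were 0.35 ± 0.09 in WT and 0.51 ± 0.07 in the knockout (SD, n = 3 each), a difference of 0.16 (exact two-sided permutation p 0.20, adjusted 0.30 over 3 ratios). The ratio of Pou5f1 to Sall4 was 5.09, 4.40 and 3.98 in WT and 5.76, 4.93 and 5.43 in the knockout, a log2 difference of 0.26 (exact permutation p 0.20, adjusted 0.30). Dppa2 over Dppa4 was 0.459, 0.376 and 0.458 in WT and 0.331, 0.403 and 0.425 in the knockout, a log2 difference of -0.16 (exact permutation p 0.30, adjusted 0.30). All 3 ratios overlapped between the genotypes, and 3 libraries against 3 cannot give a p below 0.10 in this test.

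The chromatin proteins among the members did not pass the test either. Utf1 (ENSMUSG00000047751.9, chromosome 7, 139943789 to 139945112, plus strand), a chromatin-bound factor of undifferentiated cells, ranged from 176 to 209.9 CPM in WT and from 196 to 239 in the knockout (fold change 1.09, interval 0.942 to 1.27, adjusted p 0.464). Trim28 (ENSMUSG00000005566.14, chromosome 7, 13024152 to 13031035, plus strand), the co-repressor KAP1 that zinc finger proteins bring to retroviral elements, had the highest CPM of the 10 in WT, and Dppa5a had the highest mean in the knockout. Trim28 ranged from 926 to 1158 CPM in WT and from 763 CPM in knockout A to 1031 CPM in knockout C (fold change 0.922, interval 0.775 to 1.10, adjusted p 0.575). Without knockout replicate A its log2 fold change was 0.01, against -0.12 with all libraries.

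Dppa2 and Dppa4 are neighbours on chromosome 16 (48303908 to 48319723 and 48283735 to 48294237, both on the plus strand), and their products bind chromatin as a pair and keep developmental promoters open to later activation. Dppa2 (ENSMUSG00000072419.5) was counted at 80.3, 62.4 and 102 CPM in WT and at 47.6, 76.0 and 87.1 in the knockout. The lowest value was that of knockout A, and the 2 groups overlapped widely. With 24.5% in WT and 29.0% in the knockout it had the largest coefficient of variation of the 10 in each genotype, and its fold change of 0.861 had an interval of 0.647 to 1.14 (adjusted p 0.526). Dppa4 (ENSMUSG00000058550.15) varied in the same libraries, with 106, 100.2 and 135 CPM in WT and 87.0, 114 and 124 in the knockout (fold change 0.953, interval 0.782 to 1.16, adjusted p 0.796). Without knockout replicate A the log2 fold change was -0.0015 for Dppa2 and 0.07 for Dppa4.

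Dppa5a (ENSMUSG00000060461.5, chromosome 9, 78367052 to 78368177, minus strand) encodes an RNA-binding protein with a KH domain. Its levels were 773, 853 and 852 CPM in WT and 978, 949 and 997 in the knockout. Every knockout library was above every WT library, and the knockout libraries differed little among themselves (coefficient of variation 2.43%). The fold change was 1.18 with an interval of 1.05 to 1.33 (log2 fold change 0.24, SE 0.08), and its adjusted p of 0.0591 missed the threshold. It passed in 4 of 16 alternative analyses, with an adjusted p of 0.0369 in DESeq2 and 0.0399 in limma-voom, and over all 16 the log2 fold change lay between 0.19 and 0.27. Without knockout replicate A it was 0.24.

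Fbxo15 (ENSMUSG00000034391.12, chromosome 18, 84934782 to 84981473, plus strand), an F-box protein gene and a direct target of OCT4 and SOX2 that is dispensable for the stem cell state, was the member that fell. It was counted at 115, 122 and 164 CPM in WT A, B and C, and the knockout libraries in the same order held 60.9, 91.8 and 106 CPM. All knockout libraries were below all WT libraries, and in both genotypes replicate C was the highest. The mean fell from 134 ± 26.1 to 86.2 ± 23.1 CPM (SD, n = 3 each), to 64.5% of WT, with a fold change of 0.645 and an interval of 0.502 to 0.830 (log2 fold change -0.63, SE 0.17, adjusted p 0.0221). The library with the fewest reads for it held 1101 counts. The call was lost without WT replicate B (adjusted p 0.0611), WT replicate C (0.140) or knockout replicate B (0.0697), and DESeq2 did not make it (adjusted p 0.116). Without knockout replicate A, its lowest library, the log2 fold change was -0.43 and passed (adjusted p 0.0216).

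Tcl1 (ENSMUSG00000041359.14, chromosome 12, 105216750 to 105222793, minus strand) encodes a co-activator of the kinase AKT. It was counted at 46.0, 35.5 and 48.5 CPM in WT and at 35.7, 57.1 and 50.6 in the knockout. The lowest library of each genotype was nearly equal to that of the other (WT B and knockout A). The fold change was 1.10 with an interval of 0.874 to 1.40 (adjusted p 0.622), and the log2 fold change of 0.14 became 0.31 when knockout A was left out and 0.01 when knockout B was.

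Within a genotype, most members had their lowest level in the same library. Which library was lowest was not counted over all tested genes, so this is not shown to be particular to the members. In knockout replicate A, 9 of the 10 members had their lowest knockout level, and in WT replicate B 8 of 10 had their lowest WT level. WT replicate C held the highest WT level of 7 members. Relative to the mean of the knockout libraries, the log2 level in knockout A was -0.52 for Dppa2, -0.46 for Fbxo15, -0.39 for Tcl1 and -0.30 for Dppa4, and it was -0.11 for Sox2 and -0.10 for Utf1. Dppa5a was the exception, at 0.01. The coefficient of variation of CPM was largest for Dppa2 and Fbxo15 and smallest for Dppa5a and Sox2 in both genotypes.

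**Figure D3:**
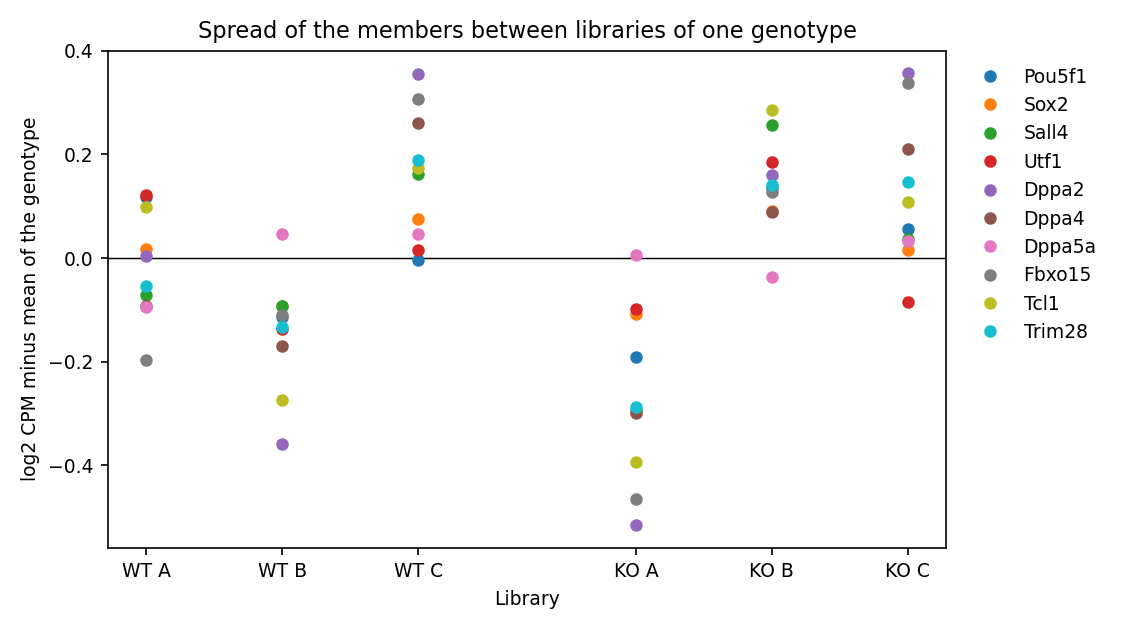
Log2 CPM of each gene in each library minus its mean over the 3 libraries of the same genotype. Knockout A holds the low values, down to -0.52 for Dppa2, and Dppa5a stays near 0 in all 6 libraries.

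Leaving out a single library moved the sign of some members. The log2 fold change of Trim28 ranged from -0.18 to 0.01 over the 6 fits that left out 1 library, that of Sall4 from -0.24 to 0.02 and that of Dppa4 from -0.17 to 0.08. Fbxo15 stayed below 0 in all 6 (-0.80 to -0.43), and Dppa5a, Pou5f1 and Utf1 stayed above 0 in all 6, from 0.19 to 0.27, from 0.08 to 0.23 and from 0.04 to 0.19.

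**Figure D4:**
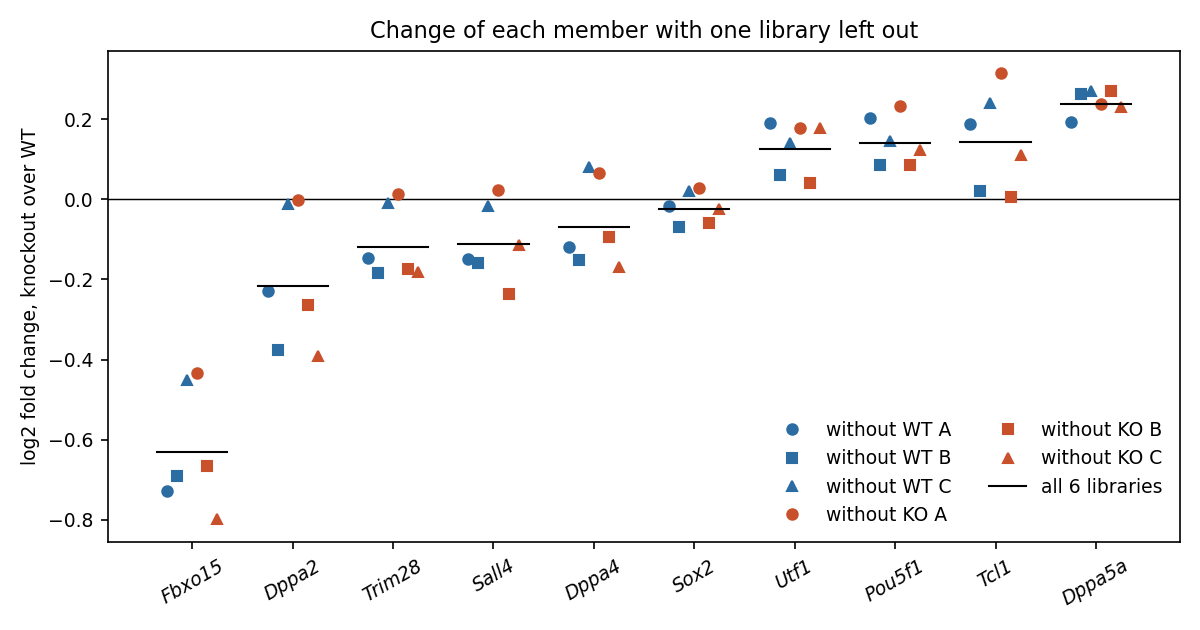
Log2 fold change of each gene with all 6 libraries (black line) and with 1 library left out (points, WT in blue and knockout in orange, the letter given by the shape). Leaving out knockout A (orange circles) raised the value of 9 genes, and that of Dppa5a stayed at 0.24.

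For Fbxo15, the member with the largest change, the genes with the most similar pattern over the 6 libraries were sought among 11370 others with a mean of at least 100 counts. Likeness was the root mean square distance of log2 CPM after each gene's mean was removed. The nearest were Zfp119b (distance 0.08), Arrdc3 (0.11) and Ttc32 (0.11), on chromosomes 17, 13 and 12. Arrdc3 (137, 151 and 173 CPM in WT, then 83.1, 109.9 and 134 in knockout A, B and C, a log2 change of -0.49 with adjusted p 0.0298) and Ttc32 (log2 fold change -0.73, adjusted p 0.0341) passed the test. Zfp119b did not (log2 fold change -0.52, adjusted p 0.142). These genes were picked for following Fbxo15 over both genotypes, so their direction and much of their difference were fixed by that choice.

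The other genes of the OCT4 and SOX2 circuit held calls in both directions. All 25 listed genes were tested, and 6 were higher and 5 lower in the knockout, a share of 44% against the background of 13.3%, with a median log2 fold change of 0.13. The balance of directions differed between settings. When knockout A was left out, 11 were higher and 5 lower, the added genes being Nanog, Tbx3, Prdm14, Nr0b1 and Zfp42. With no filter on low counts 10 were higher and 6 lower. Without chromosomes 1, 14 and Y, a fit that takes out Klf5 and Lefty1 themselves, 4 were higher and 4 lower. Klf4, a naive-state factor that acts beside OCT4, rose from 237 ± 41.7 to 513 ± 135 CPM (SD, n = 3 here and below), a log2 change of 1.12 (adjusted p 0.000398). Spp1, which encodes the secreted protein osteopontin, rose from 231 ± 52.5 to 472 ± 118 CPM, a log2 change of 1.03 (adjusted p 0.000837), and 18.8% of its exon bases are shared with another gene of the same strand. Klf5 had a log2 change of 0.79 (adjusted p 0.00735). It lies on chromosome 14, and its call was lost without WT replicate B (adjusted p 0.0684). Lefty1, an inhibitor of Nodal on chromosome 1, fell from 71.6 ± 22.7 to 33.1 ± 10.7 CPM, a log2 change of -1.11 (adjusted p 0.00278). Over all 622 tested genes of chromosome 14 the median log2 fold change was 0.53, and over the 1002 of chromosome 1 it was -0.33. Over the 6 of chromosome Y it was -2.56, and none of the 10 members lies on any of these chromosomes. Nanog and Esrrb, chosen after their values were seen because they are the usual partners of OCT4 and SOX2, had log2 changes of 0.24 (adjusted p 0.347) and 0.10 (adjusted p 0.568). Nanog passed when knockout A was left out (0.43, adjusted p 0.0058) and with no filter on low counts (0.27, adjusted p 0.0365). In the fit with no filter the adjusted p of Klf4 was 9.28e-32 at a log2 change of 1.14. Calls of that fit are therefore not on the scale of the main test. It was lowest of the 6 libraries in knockout A, at 376 CPM, and reached 581 and 619.8 CPM in knockout B and C against 392 to 521 CPM in WT.

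Relatives of the members by family or name were examined as well. Of 25 listed relatives, 19 were tested, with 2 called higher and 2 lower (21.1% against 13.3%) and a median log2 fold change of 0.02. The number called was 7 without knockout replicate A and 2 without WT replicate A, knockout replicate B or knockout replicate C. The untested were Pou5f2 and the cluster Tcl1b1 to Tcl1b5, of which Tcl1b1, Tcl1b3 and Tcl1b5 had 0 counts in every library. Dppa3, a maternal factor that protects DNA methylation, fell from 8.99 ± 1.76 to 3.36 ± 1.08 CPM, a log2 change of -1.43 (adjusted p 0.00178). Sox21, a SOX family repressor that maps to chromosome 14, rose from 6.74 ± 1.88 to 15.1 ± 4.01 CPM, a log2 change of 1.16 (adjusted p 0.00336). A gene of the opposite strand covers 18.8% of its exon bases. Trim66, a relative of Trim28, had a log2 change of -0.77 (adjusted p 0.0386). Its call was lost without WT replicate A (adjusted p 0.250), WT replicate C (0.0704), knockout replicate B (0.0980) or knockout replicate C (0.152). Pou3f2 was close to the detection limit, with 2, 2 and 8 counts in the WT libraries and 14, 16 and 22 in the knockout libraries (adjusted p 0.0409), and its call failed in 5 of the 6 fits that left out 1 library.

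For the complexes through which SALL4 and TRIM28 act, calls were set beside the 13.3% of all tested genes. None of the 15 NuRD subunits passed in edgeR's quasi-likelihood test (median log2 fold change 0.05), 5 had an unadjusted p under 0.05 where 26.7% of all tested genes did, limma-voom called 0 and DESeq2 called 1, Mbd2. In edgeR 1, the same gene, was called when knockout A was left out. Chd4, the ATPase of the complex, was named after its values were seen and had a log2 change of 0.05 (adjusted p 0.777). Among 19 partners of TRIM28 in silencing, 2 were higher and 0 lower (10.5% against 13.3%), and 5 had an unadjusted p under 0.05. Zfp57, a KRAB zinc finger protein that guides TRIM28 to imprinted regions, was counted at 237, 215 and 251 CPM in WT and at 425, 715 and 818 in the knockout (log2 fold change 1.48, SE 0.17, adjusted p 5.5e-05). Suv39h1, a histone H3 lysine methyltransferase on the X chromosome, was counted at 38.1, 38.7 and 37.7 CPM in WT and at 86.7, 78.6 and 80.4 in the knockout (log2 fold change 1.10, adjusted p 3.8e-06), and 11.1% of its exon bases lie under a gene of the opposite strand. Setdb1, the methyltransferase that TRIM28 recruits and also named after its values were seen, had a log2 change of 0.13 (adjusted p 0.337).

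Genes tied to DPPA2 and DPPA4 and to the 2-cell-like state stood at a median log2 change of -0.70 over 14 tested of 15 listed, with 1 called lower and 0 higher (7.14% against 13.3%) and 4 at an unadjusted p under 0.05. Mael, a germline gene of the piRNA pathway on chromosome 1, fell from 22.0 ± 2.03 to 13.0 ± 1.75 CPM, a log2 change of -0.76 (adjusted p 0.00244). Reads of the Zscan4 genes cannot be assigned surely, since these genes are almost the same in sequence. Zscan4c, chosen after its values were seen, stood at 11.1 ± 5.95 CPM in WT and 6.86 ± 3.05 in the knockout (adjusted p 0.226), lowest in knockout A. It passed with no filter on low counts (adjusted p 0.0147), a fit whose adjusted p-values are not on the scale of the main test.

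For Tcl1 and Fbxo15 the neighbouring pathways were the AKT kinases and the SCF ubiquitin ligases, in which F-box proteins choose the substrate. Of 16 AKT pathway genes, 1 was higher and 2 lower (18.8% against 13.3%, median log2 fold change 0.01). Foxo3, a transcription factor that AKT keeps out of the nucleus, rose from 184 ± 24.9 to 279 ± 45.8 CPM, a log2 change of 0.61 (adjusted p 0.00410). Pik3cd had a log2 change of -0.58 (adjusted p 0.0134), which missed the threshold when WT A (adjusted p 0.0975) or knockout C (0.0735) was left out. None of the 12 SCF and F-box genes passed in edgeR (median log2 fold change -0.01). At an unadjusted p under 0.05 there were 4, limma-voom called 0 and DESeq2 called 1, Skp2. In edgeR 1, Fbxw7, was called when knockout A was left out.

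Markers of other cell types were set beside the members. All 10 primitive endoderm markers were called higher in the knockout (background 7.6%), with a median log2 fold change of 1.60 and a summed level of 324 to 371.5 TPM in WT against 605, 698 and 1043 TPM in knockout A, B and C. None was at 0 in any library. Col4a1, a basement membrane collagen, rose from 147 ± 19.1 to 519.6 ± 179 CPM (log2 fold change 1.82), and the endoderm factors Sox7 (chromosome 14) and Sox17 (chromosome 1) had log2 changes of 2.18 and 2.15 and stood at 12.4 and 8.67 CPM in the knockout. Foxa2 had 4 to 6 counts in WT and 12 to 32 in the knockout, and its call was lost without any 1 of the 3 WT libraries or knockout replicate C (adjusted p up to 0.180). Without knockout replicate A, the library with the lowest level of 9 members among the knockout libraries, 10 of 10 were called, and leaving out a WT library or knockout replicate C gave 8. Knockout A also had the lowest summed level of these markers among the knockout libraries. The part of such cells in the values of the members was not tested.

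The remaining marker lists held calls that were lower in the knockout or went in both directions. Of 9 tested trophoblast markers of 10 listed, 2 were lower and 0 higher (22.2% called, against 13.3% of all tested genes). Their median log2 fold change was -0.25, and they summed to 131.5 to 142.5 TPM in WT and 76.0 to 93.3 TPM in the knockout. Tfap2c had a log2 change of -1.06 (adjusted p 2.5e-05) and Esx1 one of -1.04 (adjusted p 0.00336). Of 11 fibroblast markers, 6 were tested and 3 were lower (50% against 13.3%). They summed to 605 to 684 TPM in WT and 373 to 413 TPM in the knockout, and S100a4 was at 0 throughout. With knockout A left out 5 were lower, Col1a2 and Col3a1 being added. Fn1, on chromosome 1, had a log2 change of -0.73 (adjusted p 3.9e-05). It made up most of the summed level, at a mean of 532.5 TPM in WT and 312 TPM in the knockout. Col1a1 fell from 12.5 ± 3.27 to 4.49 ± 1.28 CPM, and Vim lost its call without any 1 WT library or knockout replicate B (adjusted p up to 0.0961). Of 9 neural markers, 6 were tested, with 2 lower and 1 higher (50% against 13.3%). The list summed to 123 to 165 TPM in WT and 104 to 153 TPM in the knockout. Pax6 had a log2 change of -3.14 and Nes one of -0.88, and Olig2 one of 0.67, which was lost without WT replicate A or B or knockout replicate B or C (adjusted p up to 0.0875). Among the 8 stem cell markers, Klf4, Tdgf1 and Fgf4 were called higher and Alpl lower (50% against 13.3%). The log2 fold changes were 0.63 for Tdgf1, 0.29 for Fgf4 and -0.31 for Alpl. The call of Fgf4 was lost in 4 of the 6 fits that left out 1 library (adjusted p up to 0.155) and that of Alpl in 5 of them (adjusted p up to 0.137). When knockout A was left out, 5 of the 8 were higher, with Nanog and Zfp42 added, and 0 were lower. The number called was 2 when WT B, knockout B or knockout C was left out.

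**Figure D5:**
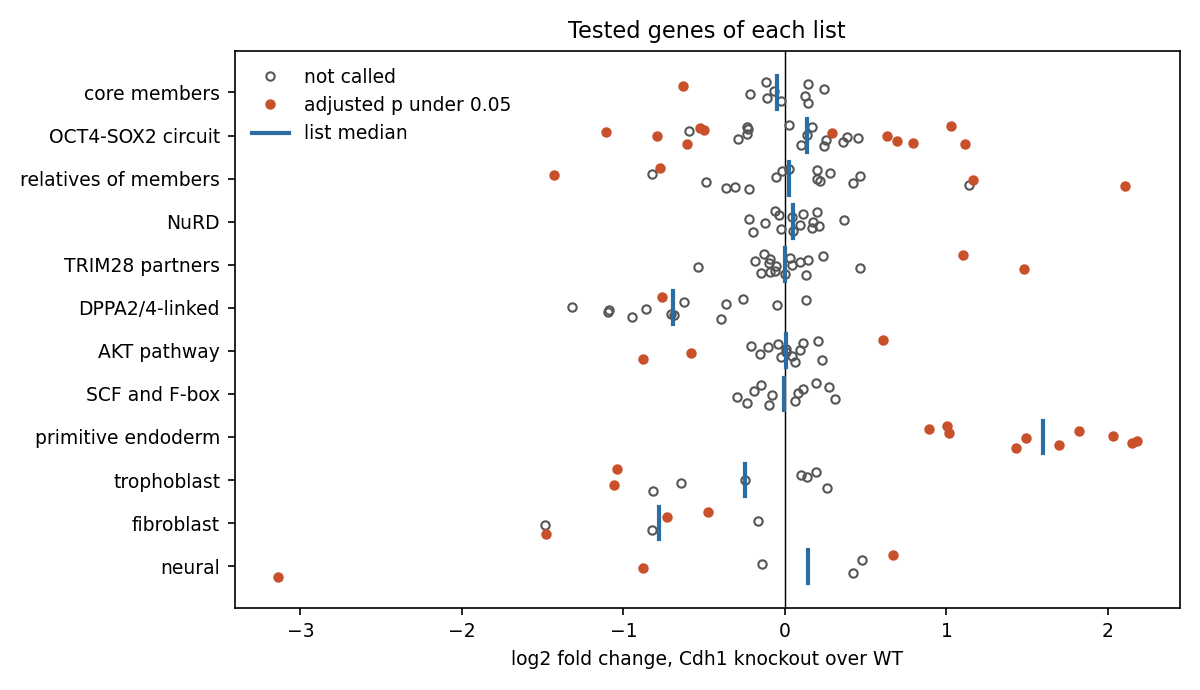
Log2 fold change, Cdh1 knockout over WT, of every tested gene of each list (circles, filled orange where the adjusted p was under 0.05), with the list median as a blue bar. The 10 core members lie close to 0 with Fbxo15 as the filled point, while all 10 primitive endoderm markers are filled and above 0.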

How the data were processed

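Total RNA from 3 WT and 3 Cdh1-/- V6.5 libraries was extracted with TRIzol and prepared with a directional kit, per the labels' protocols. The submitters' processing notes name cutadapt 2.10, STAR 2.7.5b, featureCounts 2.0.1 and the build GRCm38. The strand setting and annotation release are not given in the sources used here. The authors deposited raw counts per gene, with exon lengths. Among counts from 1 to 10, 78.1% to 83.1% were even, and how read pairs were counted is not given in the sources used here. Identifiers were named from GENCODE M21.

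The 17325 genes that passed edgeR's filterByExpr (4.0.16) were scaled by TMM and tested with the quasi-likelihood test, WT against Cdh1-/-, with Benjamini-Hochberg adjustment and a threshold of 0.05. CPM used TMM library sizes, and TPM was computed from counts and exon length. Ratios were compared with exact two-sided permutation tests. Genes other than the 10 members were named by rank of change among called genes of each list, except where said, and 1 gene of the AKT list is not reported here. The members and lists were chosen with earlier results of these data known. Alternatives used DESeq2 1.42.0, limma-voom 3.58.1, other scalings and filters, halved counts, a replicate block, fits without chromosomes 1, 14 and Y, and fits that left out 1 library. The script was tested on simulated counts.

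Replicate letters were shared by the genotypes. Deviations correlated at 0.14 for A, -0.03 for B and 0.23 for C. Knockout A was closest to WT A, with WT B next at 0.12, and knockout C was closest to WT C. Knockout B was closest to WT C, at 0.05. With 3 libraries a group, these values do not decide whether the letters pair libraries. The labels do not say either, so the main test left the libraries unpaired. The replicate block called 2686 genes, where the main test called 2307, and Fbxo15 was called in both.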

Additional observations from a re-analysis of the deposited data

How the results depend on the processing

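Most values kept their direction and side of the threshold. Fbxo15 lost its call in DESeq2 (log2 fold change -0.63, adjusted p 0.116) and in fits that left out 1 library, over which its value ran from -0.80 to -0.43. Dppa5a passed with no filter on low counts (0.27), DESeq2 (0.24), limma-voom (0.24) and the replicate block (0.24), and ran from 0.19 to 0.27 with 1 library left out. Sox2 turned to 0.0027 with no filter. In that fit the adjusted p of Fbxo15 was 1.79e-07 at a log2 fold change of -0.60, against 0.0221 in the main test. Calls made with no filter are therefore not on the scale of the main test. With 1 library left out, Sox2 ran from -0.070 to 0.028, Sall4 from -0.24 to 0.022, Dppa4 from -0.17 to 0.082 and Trim28 from -0.18 to 0.013. The members called numbered 0 at an adjusted p of 0.01, 2 with no filter, 2 in limma-voom, 2 with the replicate block and 0 to 1 with 1 library left out. The genes called among all tested numbered 1242 at an adjusted p of 0.01, 1535 without chromosomes 1, 14 and Y and 1374 to 2784 with 1 library left out. Called relatives numbered 2 at an adjusted p of 0.01, 2 without those chromosomes and 2 to 7 with 1 library left out. Leaving out chromosome 14 takes out Sox21 itself. Called NuRD genes numbered 1 in DESeq2 and 0 to 1 with 1 library left out. Called genes tied to DPPA2 and DPPA4 numbered 5 with no filter, 2 in DESeq2, 6 with the replicate block and 0 without chromosomes 1, 14 and Y. Mael, the gene of this list called in the main test, lies on chromosome 1 and was not in that last fit. Called SCF genes numbered 1 under upper quartile scaling, library totals only, no filter, CPM above 1 in 3 libraries, DESeq2 and counts divided by 2, and 0 to 1 with 1 library left out. Apart from genes taken out with their chromosomes, the cause was not tested. Under upper quartile scaling, 49.9% of called genes were higher, against 57.1% under TMM, and the median of all genes moved from -0.01 to -0.04. With 3 libraries a group, the precision is set by the spread between libraries.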
